A study of Mus musculus with 18 samples.

Results

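A group of 10 genes that make, remove, carry or read retinoic acid was followed through the embryonic mouse heart ventricle at stage E14.5. They were chosen by name, out of 28563 genes that transcripts were tied to, with earlier results of these data known. The synthesis genes were Rdh10 and Aldh1a2, with Dhrs3 working against the first step, the removal genes Cyp26a1 and Cyp26b1, the binding proteins Crabp1 and Crabp2, and the receptors Rara, Rarb and Rxra. All 10 were matched by symbol and all 10 passed the filter on low counts, which kept 16607 genes.

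PolyA RNA of dissected ventricles was sequenced in 18 libraries of 5 genotypes, to ask what the loss of the Iroquois homeobox factors Irx3 and Irx4 changes in the ventricle wall. WT, Irx3KO and Irx4KO had 3 libraries each. Irx3het_Irx4het, here dHet, had 3 libraries, and Irx3KO_Irx4KO, here DKO, had 6. All were mouse ventricles of the same stage, and none carried a further allele or treatment by the labels. The labels give neither the strain nor the part of each gene that was removed. They do not say that the libraries of a group are from different embryos, so a p-value here rests on library-to-library spread that could be technical. The summed level of 4 Y-linked genes was at most 1.42 CPM (counts put on the same total in each library) in WT 3, dHet 2 and DKO 4 and at least 96.7 CPM in the other 15 libraries, so WT, dHet and DKO of set 2 are not each repeats of 1 RNA sample.

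The libraries were handled as 2 sets that differ technically. The labels do not name these sets, which were recognised in an earlier analysis of the same data, and DKO alone is in both. Set 1 holds WT 1, 2 and 3 with DKO 5, 7 and 10, and set 2 holds the other 12 libraries. Genotypes were therefore compared within a set, so that DKO was set against WT in set 1 and against the other genotypes in set 2. Between the DKO libraries of the sets 18.8% of all genes passed the test and none of the 10 did (0 with unadjusted p under 0.05, beside 32.2% of all genes, and 0 by DESeq2 or limma-voom). Rara and Rarb did not overlap between these DKO libraries, 2 of 10 beside 29.1% of all genes. Library totals ran from 26721576 to 45946741 estimated counts. Irx3 was between 2.58 and 4.33 CPM in the libraries labelled Irx3KO or DKO and between 22.1 and 28.5 CPM in WT and Irx4KO, with dHet between them (12.8 to 13.3 CPM). Irx4 was higher in every library labelled Irx4KO or DKO (216 to 282 CPM) than in WT (78.75 to 125.5 CPM). Within set 2 it was between 134.8 and 157.5 CPM in Irx3KO and between 175.9 and 190.8 CPM in dHet. It was between 215.7 and 239.1 CPM in Irx4KO and between 221.2 and 237.3 CPM in DKO. In set 2 its count thus separates Irx3KO, dHet and the libraries labelled Irx4KO or DKO without overlap. It does not fall with these labels, so it does not show a loss of Irx4. Every direction given for Irx4KO or DKO has this limit. Both names below stand for the libraries so labelled. Ventricular myocardium markers (Myl2, Myl3, Myh7, Tnnt2, Actc1, Hey2 and Mycn) summed to between 24800 and 29570 CPM per library. Liver and lung markers summed to at most 2.03 CPM, with 5 of 6 under 1 CPM in every library.

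Retinoic acid is a hormone-like derivative of vitamin A that cells make from retinol. RDH10 oxidises retinol to retinaldehyde, DHRS3 turns retinaldehyde back to retinol, and ALDH1A2 makes retinoic acid from retinaldehyde. In the embryonic heart Aldh1a2 is known as a gene of the epicardium, the outer layer of the ventricle. CYP26A1 and CYP26B1 break retinoic acid down, and CRABP1 and CRABP2 carry it in the cytoplasm. It acts through retinoic acid receptors (RARA, RARB), which bind DNA in pairs with a retinoid X receptor such as RXRA. RXRA also pairs with receptors of vitamin D, thyroid hormone and fatty acids, and loss of Rxra is known to thin the ventricle wall of mouse embryos. Irx4 is known to act with retinoid X receptors. Rarb, Cyp26a1 and Dhrs3 are themselves induced by retinoic acid, which makes them common readouts of the signal.

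The response element through which the receptors act was looked for at the start sites of the genes. It is a direct repeat of a 6-base half-site (each of them AGGTCA, or else AGTTCA, or else GGGTCA, or else GGTTCA) with 5 bases between, read on both strands, in the RefSeq windows from 250 bases before to 50 bases after each annotated start (GRCm38.p6, which is not the mm9 build named by the submitters). Windows were matched for 8 of the 10 genes (14 windows), and Rdh10 and Crabp2 had no match. The repeat was found in 1 window each of Rarb and Cyp26a1 and in 0.0974% of all 32851 windows. Both windows are shown because Rarb and Cyp26a1 are the readouts of the signal in which the repeat was found. Capitals mark the repeat. The Rarb window is chr14:16575427-16575726 on the minus strand, and the repeat runs from 53 to 37 bases before the start. The Cyp26a1 window is chr19:37697558-37697857 on the plus strand, and the repeat lies on the opposite strand to the gene, from 32 to 16 bases before the start. A match is a description of the letters, not of a site in use, and no match says only that these letters are not in the window.
Rarb: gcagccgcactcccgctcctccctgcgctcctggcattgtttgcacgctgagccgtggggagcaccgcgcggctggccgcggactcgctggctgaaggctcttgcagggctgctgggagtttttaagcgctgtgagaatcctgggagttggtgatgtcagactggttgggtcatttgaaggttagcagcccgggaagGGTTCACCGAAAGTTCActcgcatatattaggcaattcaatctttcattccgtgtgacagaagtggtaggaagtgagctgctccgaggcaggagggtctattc
Cyp26a1: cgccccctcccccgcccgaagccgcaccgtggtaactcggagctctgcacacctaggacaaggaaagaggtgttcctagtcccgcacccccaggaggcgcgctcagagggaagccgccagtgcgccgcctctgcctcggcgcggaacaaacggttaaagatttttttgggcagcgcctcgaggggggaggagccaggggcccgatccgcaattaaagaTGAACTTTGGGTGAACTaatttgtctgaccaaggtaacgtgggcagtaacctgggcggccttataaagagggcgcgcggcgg

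Per length, Rxra and Rara were the most abundant of the 10 genes, and Cyp26b1, Crabp2 and Cyp26a1 the least. Levels between genes are compared in TPM (transcripts of each gene scaled for length and to a common total), as the lowest, median and highest of 18 libraries. Rxra was at 20.6, 26.7 and 30.2 TPM, and Rara at 19.9, 21.8 and 26.01 TPM. Aldh1a2 followed at 11.5, 15.0 and 17.8 TPM, Rarb at 11.4, 13.1 and 16.4 TPM, and Dhrs3 at 8.85, 12.1 and 15.2 TPM. No library of Rara was as low as the highest of Aldh1a2, whereas every other neighbour in the order overlapped. Crabp1 had a median of 7.30 TPM (2.29 to 11.2), Rdh10 of 4.71 TPM (3.10 to 6.07) and Cyp26b1 of 3.19 TPM (1.75 to 4.32). Crabp2 had a median of 1.94 TPM (0.425 to 3.06) and Cyp26a1 of 1.05 TPM (0.556 to 2.61). The plot of TPM by gene shows this order.

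**Figure D1:**
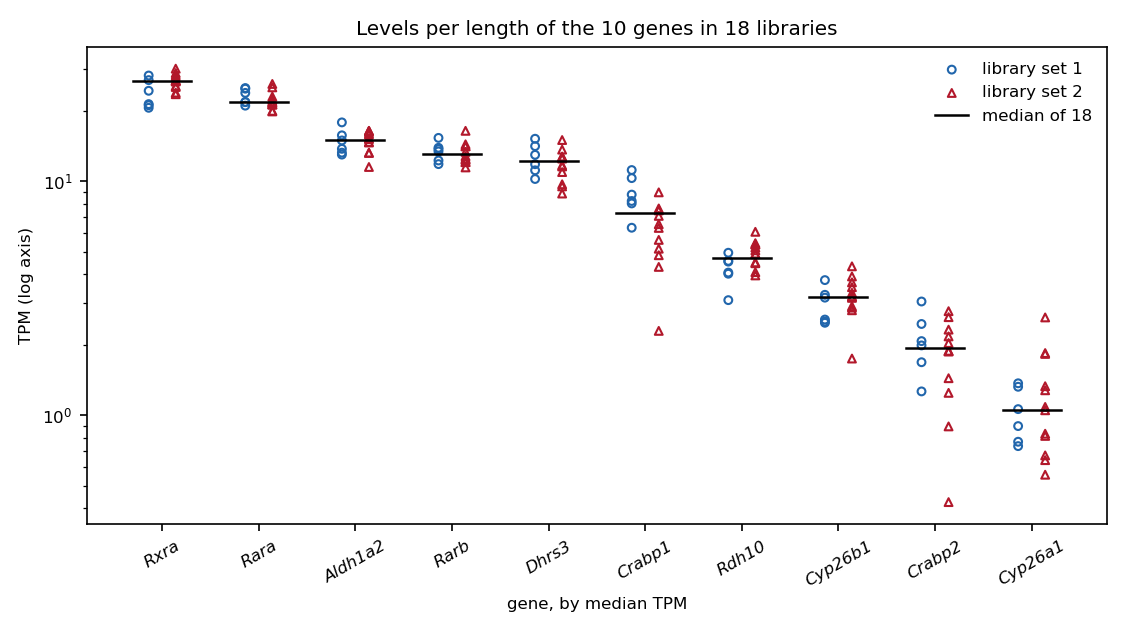
TPM on a log axis for the 10 genes in order of their median, with 1 point per library (circles for set 1, triangles for set 2) and a line at the median of 18 libraries. Rxra and Rara lie near 20 to 30 TPM, and Crabp2 and Cyp26a1 at the low end.

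The receptor genes varied least between libraries of a group. The SD of log2 CPM within the 6 groups (the 5 genotypes, with DKO split by set) was 0.0729 for Rxra, 0.0914 for Rarb, 0.113 for Rara and 0.122 for Aldh1a2. It was 0.173 for Rdh10, 0.181 for Dhrs3 and 0.266 for Cyp26b1. It was 0.358 for Cyp26a1, 0.426 for Crabp1 and 0.517 for Crabp2. Counting error alone would give 0.0249 for Rxra (3365 counts on average), 0.204 for Cyp26a1 (50 counts), 0.135 for Crabp1 (115 counts) and 0.234 for Crabp2 (38 counts). Cyp26a1 and Crabp2 had the fewest counts of the 10 genes. Of the genes with more than 1 listed transcript, Rxra, Crabp2 and Rdh10 were carried mainly by 1. Rxra-201 held between 93.8% and 100% of the counts of Rxra. Rarb, Aldh1a2, Cyp26a1 and Crabp1 had 1 listed transcript each, which holds all their counts by design and says nothing on other transcripts. Rara was spread over 4 transcripts with mean shares of 20.6% to 29.7%. Dhrs3 had 7 listed transcripts, of which Dhrs3-207 held 58.1% of its counts on average. Dhrs3-201, which is not listed as protein-coding, held between 2.7% and 28.6%. Cyp26b1 was split over a pair of transcripts, and the share of Cyp26b1-201 ran from 0.4% to 79.0% between libraries.

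**Figure D2:**
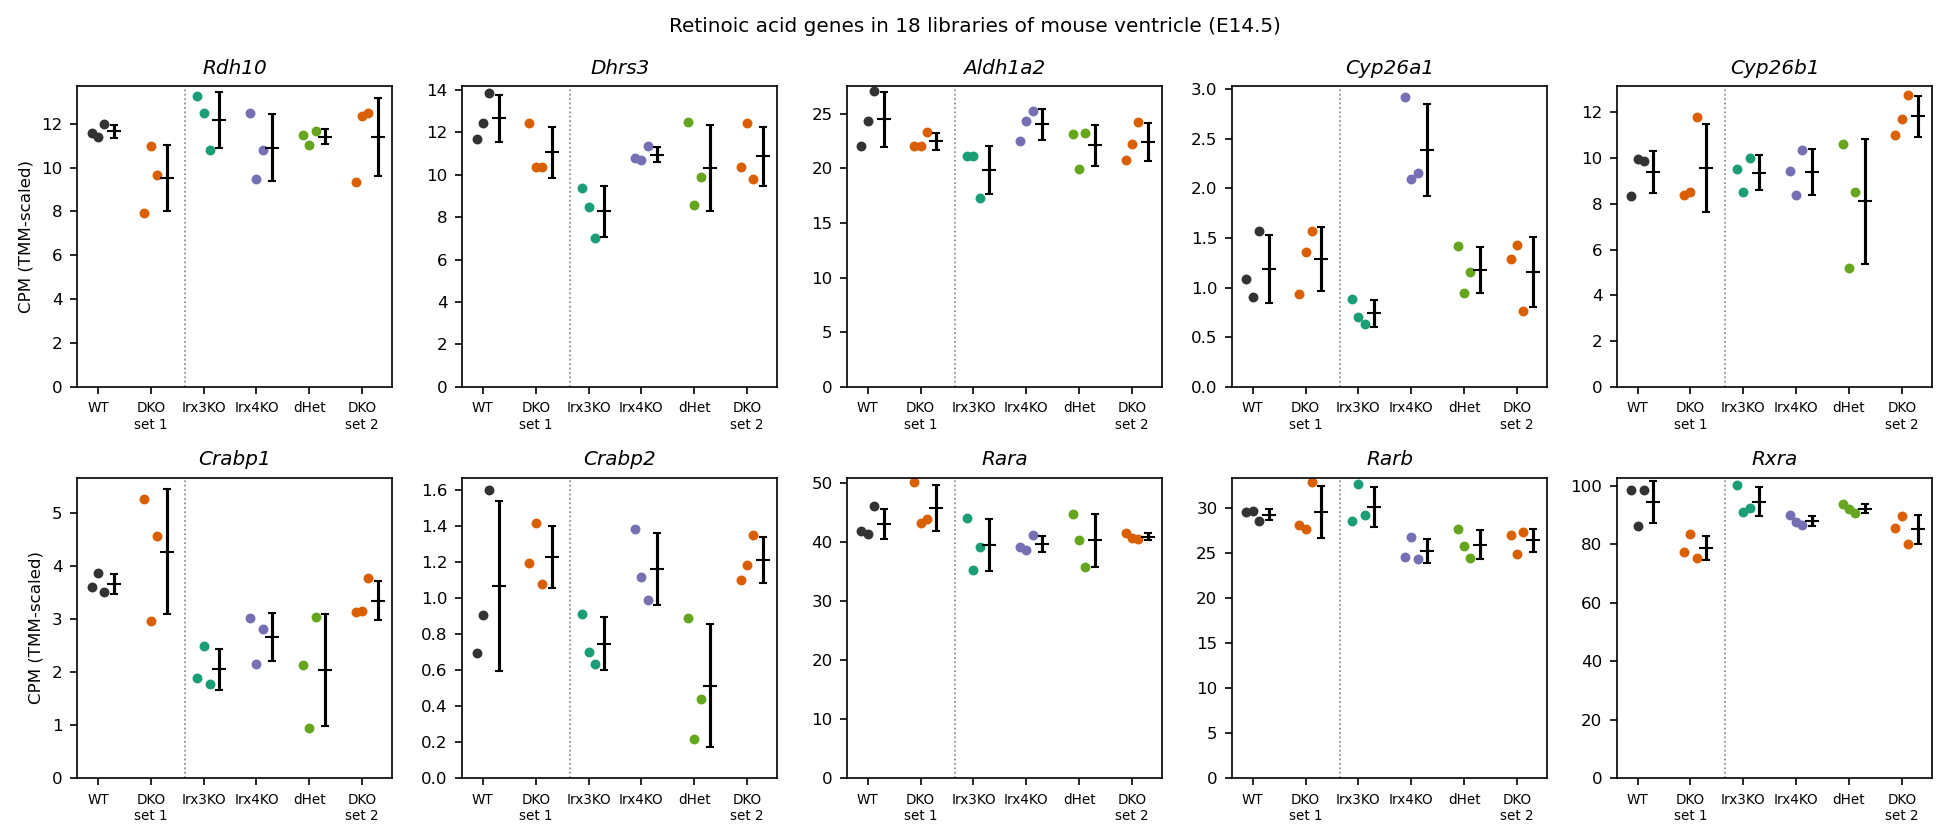
CPM scaled by TMM for each of the 10 genes in each library, by genotype, with set 1 left and set 2 right of the dotted line. Points are libraries, and bars are the mean and SD of 3 libraries. Cyp26a1 in Irx4KO (2.09 to 2.92 CPM) lies above the other libraries of set 2, and Rxra in DKO of set 1 (75.3 to 83.4 CPM) below all WT libraries.

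Among the receptors, Rxra was lower in DKO than in WT. In set 1 Rxra was at 98.5, 86.3 and 98.5 CPM in WT 1, 2 and 3 and at 77.5, 83.4 and 75.3 CPM in DKO 5, 7 and 10. Every DKO library lay below every WT library. The means were 94.5 ± 7.04 CPM in WT and 78.8 ± 4.19 CPM in DKO (SD, n = 3 and 3), a fall of 16.7% (log2 fold change -0.26 ± 0.064 SE, adjusted p = 0.049). It was the only one of the 10 genes past the threshold in this comparison, where 1.44% of all genes were (0.795% lower in DKO). Fewer cells that carry a transcript and less of it per cell cannot be told apart in RNA of whole ventricles.

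Rxra lay close to the threshold, and its direction was steadier than its call. The log2 fold change was between -0.32 and -0.23 with each of the 18 libraries left out, and the call held in 4 of these 18 fits (without WT 2, DKO 3, DKO 4 or DKO 7). It was lost without WT 1 (adjusted p = 0.21), WT 3 (0.20), DKO 5 (0.053), DKO 10 (0.081) or DKO 2 (0.064), and without any one library of the other genotypes (0.057 to 0.072). The main fit takes its estimate of spread from all 18 libraries, which gave an SE of 0.064. With the libraries of set 1 alone the SE was 0.089 and the adjusted p was 0.42. With the Y-linked level as a covariate it was 0.094.

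In set 2 Rxra was at 85.7, 89.8 and 80.0 CPM in DKO 2, 3 and 4. It was at 100.3, 91.0 and 92.4 CPM in Irx3KO 1, 2 and 4, at 93.9, 91.9 and 90.9 CPM in dHet 2, 3 and 4, and at 89.9, 87.8 and 86.6 CPM in Irx4KO 2, 3 and 4. DKO was below Irx3KO and below dHet without overlap, and it overlapped Irx4KO. The log2 fold change of DKO was -0.15 ± 0.064 against Irx3KO (adjusted p = 0.53), -0.12 ± 0.064 against dHet (0.58) and -0.05 ± 0.064 against Irx4KO (0.97). None of these passed, and they share the DKO libraries of set 2 but no library with the comparison to WT. Within set 2 the order of the means was Irx3KO, dHet, Irx4KO and DKO, in which Irx3KO overlapped dHet, and Irx4KO overlapped DKO.

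Other markers moved beside Rxra in the same libraries. Of 5 atrial markers, 3 rose in DKO against WT (Myl7, Myl4 and Stard10), and the list summed to between 2476 and 3285 CPM in WT and between 3762 and 4268 CPM in DKO of set 1. The same 3 genes also passed as higher in DKO of set 1 than in DKO of set 2 (list sum 2999 to 3153 CPM), where 18.8% of all genes passed. In that comparison 5 of 7 ventricular markers passed (3 higher and 2 lower in set 1), and 2 of 8 macrophage markers passed as higher. In DKO against WT all 8 macrophage markers had log2 fold changes below 0, and only Lyz2 passed (list sum 98.6 to 180.4 CPM in WT, 74.4 to 113.6 CPM in DKO). The transcription factor gene Mycn fell among 7 ventricular markers, which summed to between 25400 and 26280 CPM in WT and between 26850 and 29240 CPM in DKO. None of 11 epicardial markers passed (302 to 338 CPM summed in WT, 331 to 353 CPM in DKO). None passed among the fibroblast and cushion (7 genes), endothelial (8), smooth muscle and pericyte (6), erythroid (10), neural crest and neuron (4 of 6 tested) and liver and lung (2 of 6 tested) markers. The part of these cells in the difference of Rxra was not tested.

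Neither retinoic acid receptor passed in any of the 7 comparisons. Rara was between 41.4 and 46.0 CPM in WT and between 43.1 and 50.1 CPM in DKO of set 1, which overlapped (log2 fold change 0.09 ± 0.089). In set 2 all 4 genotype means of Rara lay between 39.5 and 40.9 CPM. Its log2 fold changes over the 6 comparisons of set 2 ran from -0.03 to 0.05, with an SE of 0.089 each. Rarb was between 28.6 and 29.6 CPM in WT and between 27.7 and 33.0 CPM in DKO of set 1 (log2 fold change 0.01 ± 0.080). In set 2 Rarb was at 28.5, 32.7 and 29.3 CPM in Irx3KO 1, 2 and 4. It was at 24.6, 26.7 and 24.3 CPM in Irx4KO 2, 3 and 4. Rarb in Irx3KO lay above Irx4KO, dHet (24.4 to 27.6 CPM) and DKO (24.9 to 27.3 CPM) without overlap. The log2 fold change of Irx3KO against Irx4KO was 0.26 ± 0.080 (adjusted p = 0.26), and against dHet 0.22 ± 0.080 (1.0).

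Among the removal genes, Cyp26a1 was lower in Irx3KO than in the libraries labelled Irx4KO. Cyp26a1 was at 0.886, 0.700 and 0.632 CPM in Irx3KO 1, 2 and 4 (25 to 36 counts per library). It was at 2.92, 2.09 and 2.15 CPM in Irx4KO 2, 3 and 4 (74 to 116 counts). The groups did not overlap, and the 3 Irx4KO libraries were also above the others of set 2, which ran from 0.632 to 1.425 CPM. Libraries of set 1, which differ technically, reached 1.57 CPM. The means were 0.739 ± 0.131 and 2.39 ± 0.460 CPM (SD, n = 3 and 3), a fall of 69.0% from Irx4KO to Irx3KO (log2 fold change -1.69 ± 0.29 SE, adjusted p = 0.015). It was the only one of the 10 genes past the threshold here, where 0.289% of all genes were (0.145% lower in Irx3KO).

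The call on Cyp26a1 was lost without Irx3KO 2 (adjusted p = 0.11), Irx3KO 4 (0.10), Irx4KO 2 (0.081) or Irx4KO 3 (0.053), and it held without each of the other 14 libraries. The log2 fold change stayed between -1.84 and -1.52 in these 18 fits. None of the marker genes of another cell type passed in this comparison, and the epicardial markers summed to between 292 and 320 CPM in Irx3KO and between 310 and 349 CPM in Irx4KO. Fibroblast and cushion markers summed to between 3939 and 4111 CPM in Irx3KO and between 4500 and 5305 CPM in Irx4KO, without overlap. Macrophage markers (80.7 to 90.9 CPM in Irx3KO, 66.5 to 79.1 CPM in Irx4KO) did not overlap either, in the other direction. The same held for smooth muscle and pericyte markers (1087 to 1375 CPM and 992 to 1085 CPM). The part of any of these cells in the difference of Cyp26a1 was not tested.

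Against the other genotypes of set 2, Cyp26a1 did not pass. It was at 1.29, 1.42 and 0.760 CPM in DKO 2, 3 and 4 and at 1.42, 0.950 and 1.16 CPM in dHet 2, 3 and 4. Both groups were below Irx4KO without overlap, by log2 fold changes of -1.04 ± 0.28 for DKO (adjusted p = 0.65) and, with the sign as Irx4KO less dHet, 1.02 ± 0.29 (0.57). Irx3KO was below dHet without overlap (-0.67 ± 0.30, adjusted p = 1.0) and overlapped DKO. In set 1 Cyp26a1 was at 1.09, 0.907 and 1.57 CPM in WT 1, 2 and 3. It was at 0.932, 1.36 and 1.57 CPM in DKO 5, 7 and 10, and the groups overlapped (0.11 ± 0.29). WT and Irx4KO are in different sets and were not compared with each other. Between the DKO libraries of the sets Cyp26a1 had a log2 fold change of 0.15 ± 0.29 (adjusted p = 0.76). Cyp26b1 passed nowhere. It was at 11, 11.7 and 12.8 CPM in DKO 2, 3 and 4, above Irx3KO (8.53 to 10.03 CPM), Irx4KO (8.37 to 10.4 CPM) and dHet (5.21 to 10.6 CPM) without overlap. The difference from dHet was 0.54 ± 0.19 (adjusted p = 0.37). In set 1 Cyp26b1 overlapped between WT (8.33 to 9.98 CPM) and DKO (8.39 to 11.8 CPM).

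Neither the synthesis genes Rdh10 and Aldh1a2 nor Dhrs3, which acts in the reverse direction, passed in any comparison. Rdh10 was at 11.58, 11.4 and 11.97 CPM in WT 1, 2 and 3 and at 7.93, 10.97 and 9.68 CPM in DKO 5, 7 and 10, without overlap. Its log2 fold change was -0.29 ± 0.14 (adjusted p = 0.35), and in set 2 the largest in size was 0.16 ± 0.14 (Irx3KO against Irx4KO). Aldh1a2 was between 22.02 and 27.03 CPM in WT and between 22 and 23.4 CPM in DKO of set 1 (-0.12 ± 0.099). In set 2 Aldh1a2 was at 21.1, 21.1 and 17.3 CPM in Irx3KO 1, 2 and 4, below Irx4KO (22.5, 24.3 and 25.3 CPM in 2, 3 and 4) without overlap. That difference was -0.28 ± 0.099 (adjusted p = 0.38). Dhrs3, the gene of the enzyme that returns retinaldehyde to retinol, was at 9.37, 8.46 and 6.998 CPM in Irx3KO 1, 2 and 4. It was between 10.7 and 11.3 CPM in Irx4KO and between 9.79 and 12.5 CPM in DKO of set 2, both above Irx3KO without overlap. The log2 fold changes of Dhrs3 were -0.40 ± 0.14 for Irx3KO against Irx4KO (adjusted p = 0.37) and 0.39 ± 0.14 for DKO against Irx3KO (0.42). In set 1 it was between 11.7 and 13.8 CPM in WT and between 10.3 and 12.5 CPM in DKO (-0.19 ± 0.14).

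The binding protein genes Crabp1 and Crabp2 were low and variable, and passed nowhere. Crabp1 was between 3.51 and 3.86 CPM in WT and between 2.97 and 5.26 CPM in DKO of set 1 (0.23 ± 0.29). In set 2 it was between 3.13 and 3.77 CPM in DKO. That was above Irx3KO (1.77 to 2.49 CPM), Irx4KO (2.15 to 3.02 CPM) and dHet (0.950 to 3.04 CPM) without overlap. The log2 fold changes of DKO were 0.71 ± 0.30 against Irx3KO (adjusted p = 0.53), 0.33 ± 0.30 against Irx4KO (0.95) and 0.73 ± 0.30 against dHet (0.42). Crabp2 was at 0.887, 0.217 and 0.440 CPM in dHet 2, 3 and 4, that is 35, 8 and 11 counts. It was between 1.10 and 1.35 CPM in DKO and between 0.989 and 1.38 CPM in Irx4KO, both above dHet without overlap. The differences were 1.21 ± 0.39 for DKO against dHet (adjusted p = 0.29) and 1.15 ± 0.39 for Irx4KO against dHet (0.70). In set 1 Crabp2 overlapped between WT (0.694 to 1.60 CPM) and DKO (1.08 to 1.42 CPM).

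Over all 10 genes and 7 comparisons, 2 of 70 tests passed, and 8 genes passed in no comparison. In the 5 comparisons where none of the 10 passed, the share of all genes that did was 0.379% for DKO against Irx3KO, 0.0241% for DKO against Irx4KO and 0.0903% for DKO against dHet. It was 0.00602% for Irx3KO against dHet and 0.0120% for Irx4KO against dHet. DESeq2 and limma-voom also called 0 of the 10 there. With unadjusted p under 0.05 there were 5, 1, 3, 3 and 2 of the 10 in these comparisons, in the same order, beside 7.91%, 5.78%, 9.81%, 4.38% and 5.61% of all genes. In DKO against WT there were 2, beside 13.8% of all genes, and in Irx3KO against Irx4KO 4, beside 8.62%. Comparisons within set 2 share libraries, so these counts are not separate evidence.

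Groups that did not overlap were most frequent where Irx3KO was compared with Irx4KO or with DKO. In each of these comparisons 6 of the 10 genes did not overlap, beside 22.7% and 17.4% of all genes. Both comparisons use the same Irx3KO libraries, and in each 4 of the 6 genes lay lower in them and 2, Rarb and Rxra, higher. In the others, 2 of 10 genes did not overlap between DKO and WT (15.0% of all genes), 3 between DKO and Irx4KO (15.0%) and 4 between DKO and dHet (16.0%). Between Irx3KO and dHet 2 did not overlap (11.6%), and between Irx4KO and dHet 3 (14.1%). The median log2 fold change of the 10 genes was 0.02 in DKO against WT and -0.14 in Irx3KO against Irx4KO, beside 0.01 and -0.00 over all genes. The plot of differences by comparison shows each gene with its SE.

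**Figure D3:**
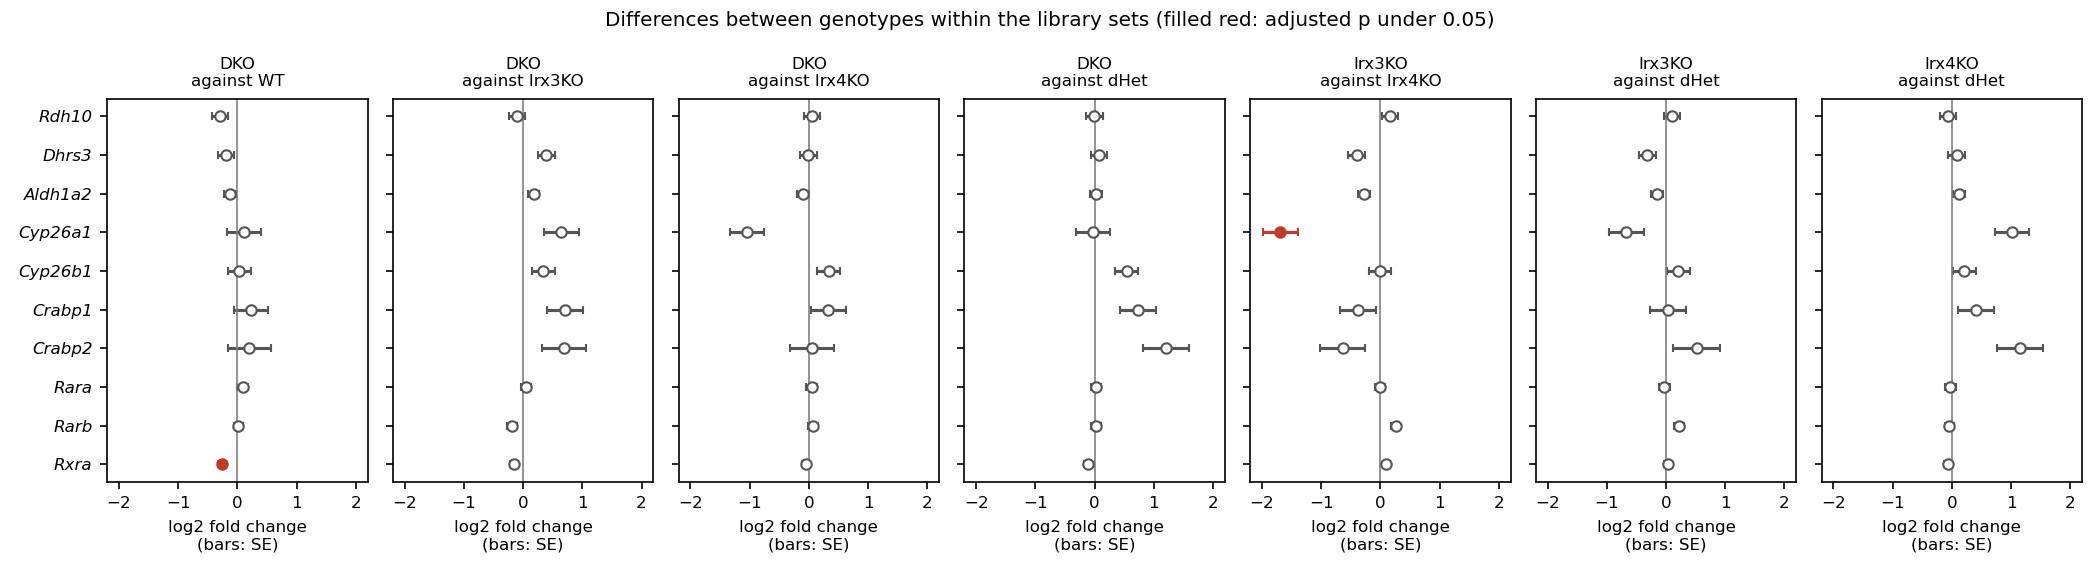
Log2 fold changes (points) with their standard errors (bars) for the 10 genes in the 7 comparisons, the first named genotype less the second. Filled red points passed at an adjusted p under 0.05, which are Rxra in DKO against WT and Cyp26a1 in Irx3KO against Irx4KO.

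The other genes of the pathway were counted in lists of retinoid supply and oxidation, other receptors and cofactors, partners of the retinoid X receptors, and target genes. Of the 15 of 16 supply genes tested, none passed in any of the 7 comparisons, where between 0.00602% and 1.44% of all genes did. They include Adh5 (110.3 ± 3.57 CPM in WT) and the further synthesis genes Aldh1a1 (4.61 ± 0.290 CPM) and Aldh1a3 (0.923 ± 0.154 CPM). The retinoic acid carrier Fabp5 did not pass either, and the third removal gene Cyp26c1 was under the filter with at most 8 counts in a library. None of 14 other receptors and cofactors passed in these comparisons. Between the DKO libraries of the sets 9 of the 14 passed (1 higher and 8 lower in set 1, median -0.33), beside 18.8% of all genes. Rxrb, which can stand in for Rxra as a partner, was at 49.7 ± 5.45 CPM in WT, Rarg at 13.2 ± 1.497 CPM and Rxrg at 1.03 ± 0.342 CPM. In DKO against WT the log2 fold change was 0.03 ± 0.090 for Rxrb, -0.05 ± 0.13 for Rarg and -0.26 ± 0.31 for Rxrg.

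None of the 12 of 13 partner receptors tested passed in the 7 genotype comparisons, beside the same shares of all genes. The thyroid hormone receptor gene Thra was at 144 ± 12.8 CPM in WT, and the vitamin D receptor gene Vdr was low (1.83 ± 0.284 CPM, log2 fold change -0.47 ± 0.24 in DKO against WT, adjusted p = 0.41). Of the 14 of 17 target genes tested, the T-box factor gene Tbx5 rose in DKO against WT, and 13 did not pass. In that comparison 1.44% of all genes passed. Tbx5 was between 51.4 and 54.5 CPM in WT and between 60.8 and 77.6 CPM in DKO of set 1, without overlap (0.43 ± 0.079, adjusted p = 0.012). That call was lost without WT 1 (0.063) and with the libraries of set 1 alone (0.24). In the 6 comparisons of set 2 none of the 14 target genes passed. The medians in DKO against WT were 0.05 for supply genes, -0.02 for receptors and cofactors, -0.09 for partners and -0.09 for targets, beside 0.01 over all genes.

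**Figure D4:**
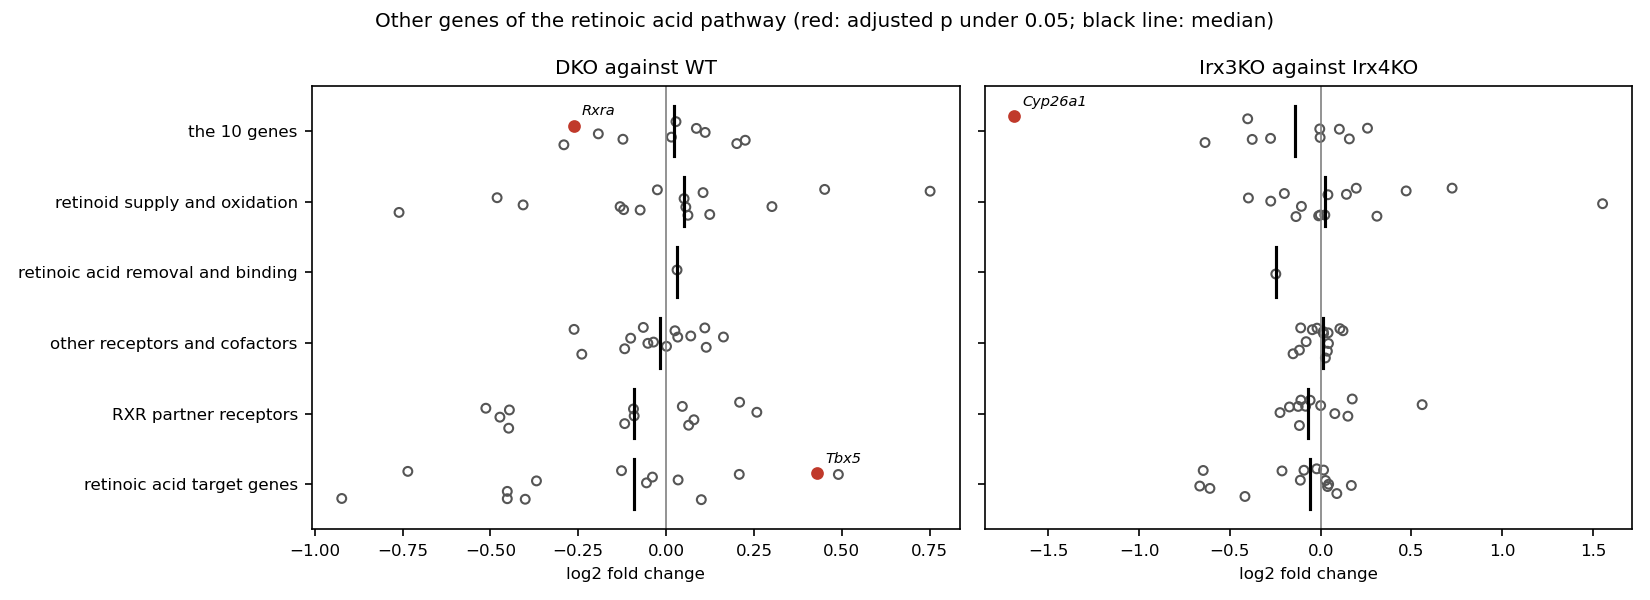
Log2 fold changes of the 10 genes and of 5 further lists in DKO against WT (left) and Irx3KO against Irx4KO (right), with 1 point per gene, red where the adjusted p was under 0.05, and a black line at each list's median. Red points are Rxra and Tbx5 on the left and Cyp26a1 on the right, and the other points lie on both sides of 0.

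Genes that vary most like 3 of the members between libraries of a group are given as a description. The measure is Pearson's r of log2 CPM deviations from the 6 group means over 18 libraries, among genes of at least 5 CPM (11251 genes compared for Rxra). For Rxra they were S1pr3 (0.84), Cdc25b (0.84), Git2 (0.84), Heyl (0.84) and Lrrc14b (0.83). For Aldh1a2 they were Basp1 (0.85), Slc25a14 (0.83), Foxc2 (0.83), Tmem164 (0.83) and Msx1 (0.82). For Cyp26a1, which itself is under 5 CPM, they were Egfr (0.85), Gpc6 (0.84), Smoc2 (0.83), Tril (0.83) and Tes (0.82). Of the 11 epicardial markers, Lrrn4 (0.71), Bnc1 (0.69) and Upk3b (0.61) were nearest to Aldh1a2, and the others ran from -0.30 (Krt19) to 0.33 (Upk1b). The points share their library and its depth.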

How the data were processed

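RNA of E14.5 mouse ventricles was measured in 18 polyA libraries, grouped and numbered by their labels. Per the file headers, the deposited tables are kallisto output, with estimated counts and TPM per transcript from 1 library each. Kallisto 0.42.2 and the build mm9 are listed in the submitters' processing notes. No source used here gives the transcript release or the strand setting. Transcript length and effective length, other columns that the authors deposited, served only to describe libraries and transcripts.

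Of 88943 transcripts, 78030 (87.73%) were tied to genes by identifier in GENCODE M21. The rest held 6.42% to 6.77% of counts and entered no gene. Expected counts were summed per gene and rounded. Genes were tested with edgeR 4.0.16 (quasi-likelihood F test, robust, TMM, filterByExpr, R 4.3.3) in 1 fit of all 18 libraries with genotype and library set, and Benjamini-Hochberg adjustment over 16607 genes at 0.05. The test was checked on simulated counts. The sets and the 10 genes, lists and tests were chosen with earlier results of these data known. Genes named outside the 10 were, by rule, Irx3, Irx4, list members past the threshold in a genotype comparison and the 5 genes most like Rxra, Aldh1a2 and Cyp26a1. Ventricular markers are named as the list, and epicardial markers (Lrrn4, Bnc1, Upk3b, Upk1b, Krt19) were picked from theirs by their r. Adh5, Aldh1a1, Aldh1a3, Fabp5, Cyp26c1, Rxrb, Rxrg, Rarg, Thra and Vdr are outside that rule and were chosen for their role after values were seen.

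CPM use TMM factors, and SE is the log2 fold change over the root of F. The alternatives were RLE factors, DESeq2 1.42.0, limma-voom (limma 3.58.1), no filter, 1 CPM in 3 libraries, counts rebuilt from TPM, fewer libraries, no set term, a Y-linked covariate, the replicate number as a block, leaving out each library, and TPM for CPM.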

Additional observations from a re-analysis of the deposited data

Results flagged for a closer look

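Rara in DKO 5 stood apart from the other DKO libraries, at 50.1 CPM beside 40.4 to 43.8 CPM in the other 5. Its gap to the nearest library was 0.654 of the range of the 6, above the limit of 0.625 for 6 values. The 6 DKO libraries were looked at in this way for 12 genes (the 10, Irx3 and Irx4), and chance flags about 1 in 20 where all 6 are alike. They are from 2 sets, between which Rara in DKO did not overlap, so a difference between sets enters this measure. DKO 5 belongs to set 1, and the log2 fold change of Rara in DKO against WT, which did not pass, was 0.09 with it and 0.015 without it.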

How the results depend on the processing

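The count of the 10 genes past the threshold in DKO against WT was 1, and it was 0 with RLE size factors, limma-voom, no filter on low counts, counts rebuilt from TPM, only the libraries of the set compared, only the 2 groups compared, genotype only with no set term, or the Y-linked covariate. The adjusted p of Rxra was then 0.052, 0.053, 0.073, 0.08, 0.42, 0.42, 0.19 and 0.094. DESeq2 (0.0057) and the filter of 1 CPM in 3 libraries kept the call. With each library left out the count was between 0 and 1 for DKO against WT and for Irx3KO against Irx4KO. The count of 1 in Irx3KO against Irx4KO became 0 with the replicate block (Cyp26a1 -1.84, adjusted p = 0.094) and held in the other 10 settings that left out no library. The labels do not say what same-numbered libraries share. Their deviations correlated between -0.336 and 0.132, over 0.1 in 1 of 15 pairs. Those of differently numbered libraries correlated between -0.249 and 0.342, over 0.1 in 7 of 39 pairs. Deviations from means of 3 libraries cannot decide whether the numbers mark a shared origin. The block took all genes called in that comparison from 48 to 10, in DKO against Irx3KO from 63 to 3, in DKO against Irx4KO from 4 to 1, in DKO against dHet from 15 to 7 and in Irx4KO against dHet from 2 to 0, and it changed no other count of the 10 genes. No paired analysis was possible for DKO against WT because its groups share no replicate number. In the other 5 comparisons and between the sets the count of the 10 genes was 0 in every setting.

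Counts of all genes moved more. For DKO against WT the count of 239 became 608 by DESeq2, 143 from TPM, 105 with no set term and 16 with set 1 alone or its 2 groups, and with a library left out it lay between 67 (without WT 1) and 576 (without DKO 5), with 124 without WT 3 and 527 without DKO 10. For Irx3KO against Irx4KO the 48 became 214 by DESeq2, 26 from TPM, 23 with no set term, 145 with set 2 alone and 541 with the 2 groups alone (with a library left out, 12 without Irx4KO 3 to 119 without DKO 5). For DKO against Irx3KO the 63 became 199 by DESeq2, 29 from TPM, 284 with no set term, 179 with set 2 alone, 108 with the 2 groups and 38 with the Y-linked covariate (15 without DKO 4 to 143 without DKO 5). For DKO against dHet the 15 became 183 by DESeq2, 317 with no set term and 173 with set 2 alone (4 without dHet 3 to 102 without DKO 5). DKO against Irx4KO went from 4 to 26 by DESeq2, 12 with no set term, 7 with the 2 groups, 2 by limma-voom and 1 from TPM (1 to 6 with a library left out). Irx3KO against dHet went from 1 to 12, 4 with the 2 groups and 2 with set 2 alone (1 to 2), and Irx4KO against dHet from 2 to 32, 11, 12 and, with no set term, 1 (0 to 6), each in that order with DESeq2 first. Of 2048 recomputed fold changes of the 10 genes and Tbx5, 1957 kept direction and side of the threshold, 30 lost the call (Rxra, Cyp26a1 or Tbx5) and 61 that had passed neither way changed sign or came to 0. The causes were not tested. Cyp26a1 and Crabp2 had the fewest counts of the 10 genes, 50 and 38 on average. Their SD of log2 CPM within groups (0.358 and 0.517) was above counting error alone (0.204 and 0.234).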
